A study of Caenorhabditis elegans with 16 samples.

Results

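The transcriptome of *fbxa-215(syb4404)* mutant embryos was compared with that of wild-type N2 embryos of *Caenorhabditis elegans* whose parents grew at 20 °C. Membership followed the labels for strain and temperature, which gave 8 of the 16 libraries of the series: 4 of the mutant strain SX3678 and 4 of N2. Whole embryos of mixed stages were obtained by bleaching gravid hermaphrodites about 56 h after synchronised larvae had been plated, and N2 carries no labelled alteration. The strain names a single allele, no second allele or rescued strain was sequenced, and nothing in the labels says whether the 4 replicates of a strain came from separate cultures, so p-values measure the spread between these libraries only. Polyadenylated RNA was sequenced without strand information.

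*fbxa-215* encodes an F-box protein. F-box proteins hold substrates for ubiquitin ligases built on a cullin scaffold, which they reach through SKP1-related adaptors. During worm embryogenesis, rounds of cell division under maternal and early zygotic control are followed by specification of epidermis, muscle, gut and neurons by transcription factors, and then by morphogenesis, when sarcomeres, junctions, basement membranes, cilia and the first cuticle are built. Gene lists for these tissues, stages and families are used below to describe where the changed genes belong.

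The mutated gene was examined first. *fbxa-215* (WBGene00012879, chromosome IV) held 1, 0, 0 and 0 counts in the 4 mutant libraries, against 3093, 2949, 3214 and 2263 counts in the 4 N2 libraries. Set against a floor of 3 counts per mutant library, its level was at least 1117-fold lower in mutants (exact two-sided permutation test over libraries, p = 0.0286, the smallest that the 70 assignments allow). All 8 libraries therefore carried the *fbxa-215* level that their labels call for.

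Totals ranged from 12856080 to 16777140 counts in mutant libraries and from 10001569 to 14180712 in N2 libraries, so the mutant libraries were on the whole deeper. The first principal component of log2 CPM (the count of a gene scaled to a fixed library total, with library sizes adjusted by TMM) held 42.7% of the variance and put the strains apart, with mutant replicate 1 nearest to N2. Correlations between libraries lay between 0.9934 and 0.9952 within a strain and between 0.987 and 0.992 across strains. Markers of embryonic tissues were present in both strains: *hlh-1* (muscle) averaged 72.9 CPM in mutants and 67.2 CPM in N2, *elt-2* (gut) 32.1 and 28.0 CPM, and *snb-1* (neurons) 254 and 250.0 CPM. Other markers did not all match these. In muscle *myo-3* averaged 29.4 and 45.5 CPM and *unc-54* 36.9 and 52.8 CPM. Gut *elt-7* averaged 28.9 and 23.3 CPM, *ges-1* 7.86 and 8.05 CPM and *act-5* 21.0 and 22.2 CPM. In neurons *unc-86* averaged 14.1 and 18.1 CPM, *rab-3* 0.489 and 0.795 CPM and *unc-104* 11.9 and 11.7 CPM. Pharyngeal *myo-1* and *tnc-2* held at most 4 counts in a library. Adult RNA was close to absent, since the 6 *vit* yolk genes summed to between 1.66 and 1.92 CPM in mutant libraries and between 1.02 and 1.89 CPM in N2 libraries. The 43 *msp* sperm genes summed to between 1.4 and 2.86 CPM in mutant libraries and between 0.949 and 1.51 CPM in N2 libraries.

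Besides *fbxa-215*, 10470 genes were tested, and 1812 of them (17.3%) passed an adjusted p under 0.05 in edgeR's quasi-likelihood test, 801 higher (7.65%) and 1011 lower (9.66%) in mutants. These 3 shares are the background against which the lists below are read. Most changes were small: the median log2 fold change, mutant over N2 throughout, was 0.20 among the genes that rose and -0.37 among those that fell, while that of all genes tested was 0.0015. Only 117 genes (1.12%) also passed a fold change of 2, 28 of them higher (0.267%) and 89 lower (0.85%). This count rests on scarce genes: it was 45 (4 higher) with at least 10 counts required in every library, 228 with no low-count filter and 190 without mutant replicate 1. Without mutant replicate 2, 507 genes rose at any fold. In 2038 genes (19.5%) no library of one strain fell within the range of the other, 9.17% with all mutant libraries higher and 10.3% with all of them lower, and 1440 of the 1812 changed genes were among these. Genes that rose were abundant, with a median of 97.9 CPM, and genes that fell were scarcer, with a median of 23.7 CPM, against 33.4 CPM for all genes tested. The share that rose climbed with abundance, being 2.40% of genes under 2 CPM and 19.5% of genes over 200 CPM.

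Tissue lists held far more falls than rises. Of 552 tested genes in any tissue list, 157 fell and 21 rose. The plot of list shares sets 29 of the lists beside the background. Because each library is RNA of whole embryos, fewer cells of a type, less RNA per cell and a different mix of embryonic ages cannot be told apart in these values.

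**Figure D1:**
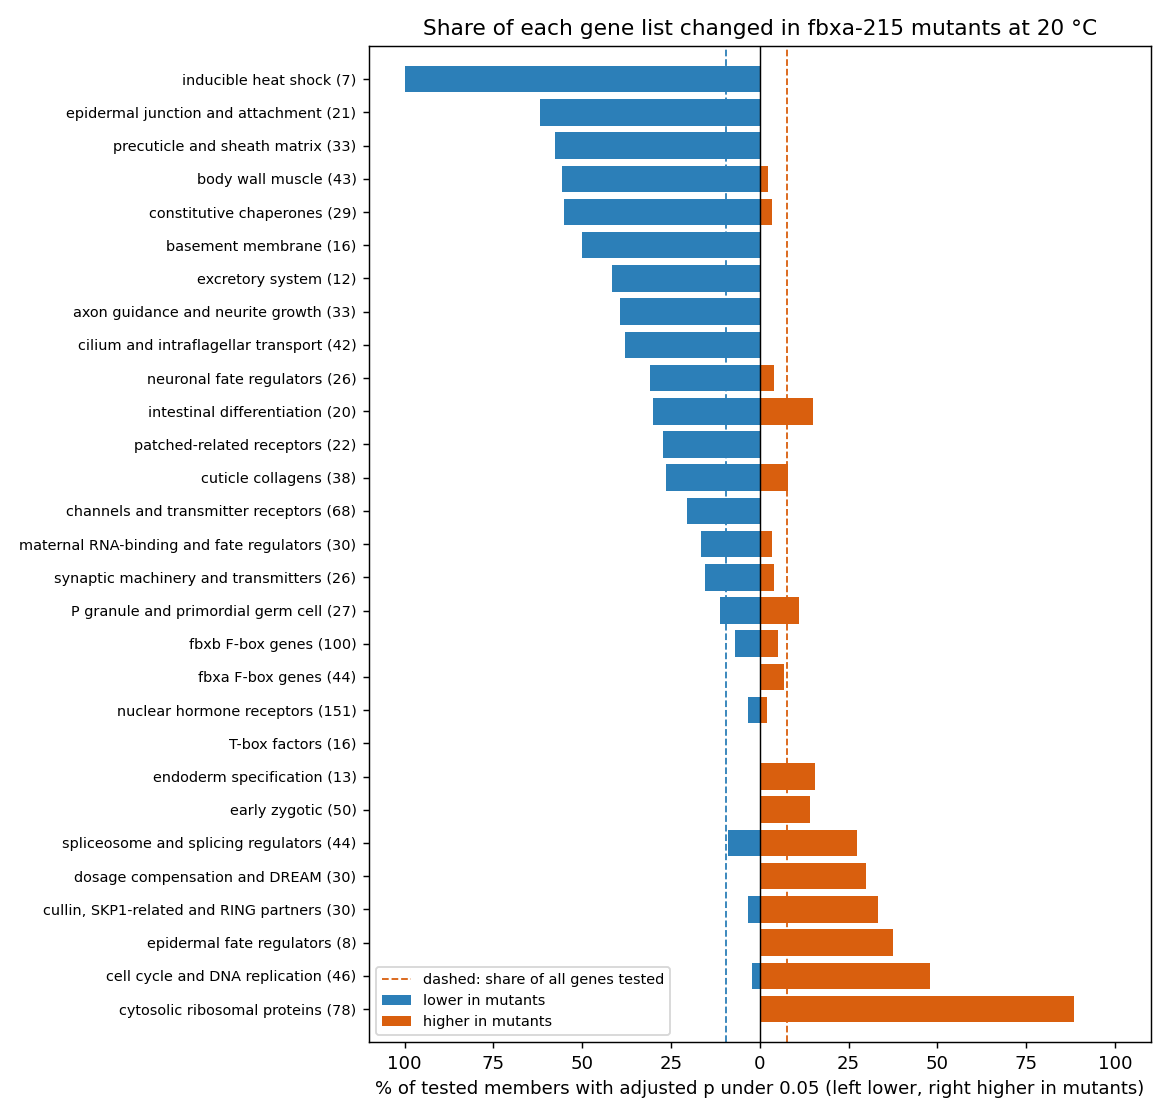
Percentage of the tested members of 29 gene lists that passed an adjusted p under 0.05, lower in mutants to the left and higher to the right, with the number of tested members in brackets. Dashed lines give the shares among all 10470 genes tested, 9.66% lower and 7.65% higher; muscle, matrix, junction and cilium lists extend far to the left, ribosomal protein and cell cycle lists to the right.

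Of 8 epidermal fate regulators tested, 3 rose, 0 fell and 5 did not pass. The list had no common sign, with 4 members above 0 and 4 below 0 and a median of 0.03. *elt-1* (WBGene00001249, chromosome IV, 9614995 to 9620280), the GATA factor that specifies epidermis, had 226, 225, 231 and 213 CPM in mutants, against 189, 189, 179 and 191 CPM in N2. No mutant library overlapped with N2, and the log2 fold change was 0.26 ± 0.04 (SE, adjusted p = 3.93e-05). The other rises were *lin-26*, a zinc finger gene that maintains epidermal fate (0.15 ± 0.04, adjusted p = 0.0199), and the nuclear receptor gene *nhr-25* (0.13 ± 0.04, adjusted p = 0.0465). In both *lin-26* and *nhr-25* the libraries of the strains overlapped. For *elt-3*, a GATA factor of differentiating epidermis, the log2 fold change was -0.13 ± 0.07 (adjusted p = 0.242).

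Genes for the junctions and attachments of the differentiated epidermis fell. Of 21 tested, 13 were lower and 0 higher, 61.9% against the background of 9.66%, with a median of -0.19. *mua-3* (WBGene00003482, chromosome III, 10160697 to 10183529) encodes a transmembrane protein of the fibrous organelles that tie epidermis to cuticle. It measured 61.0, 51.8, 47.7 and 61.2 CPM in mutants, against 96.3, 87.2, 80.9 and 76.8 CPM in N2, a log2 fold change of -0.63 ± 0.07 (adjusted p = 2.67e-06). *let-805*, the attachment protein myotactin, was at 132 ± 12.6 CPM in mutants and 175 ± 10.8 CPM in N2 (SD, n = 4). Intermediate filament genes of these organelles fell too, by 0.46 in *ifa-3* and by 0.37 in *ifb-1* on the log2 scale, as did the junction gene *ajm-1* by 0.29. For *hmr-1*, the classical cadherin, and *sma-1*, a spectrin, the log2 fold change was -0.14 each.

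The precuticle, a transient coat of lipocalins and zona pellucida domain proteins laid down before the cuticle, held *lpr-4*, the gene with the lowest log2 fold change in any list. Of 33 tested genes of precuticle and sheath matrix, 19 fell and 0 rose, and 5 of the 19 passed a fold change of 2. The list median was -0.24. *lpr-4* (WBGene00012257, chromosome X, 11065126 to 11066811), a lipocalin-related gene, had 1.40, 1.20, 0.599 and 0.947 CPM in mutants, against 6.23, 4.22, 5.55 and 3.89 CPM in N2. Its neighbour *lpr-5* (chromosome X, 11062123 to 11064539) had 10.3, 6.55, 5.12 and 7.26 CPM in mutants, against 20.5, 14.5, 12.7 and 14.0 CPM in N2. Every mutant library of both genes lay below every N2 library, with log2 fold changes of -2.26 ± 0.23 (adjusted p = 6.16e-07) and -1.08 ± 0.16 (adjusted p = 7.99e-05). Among the cuticlin-like *cutl* genes, 10 of 17 tested fell and 0 rose, from -0.24 in *cutl-16* to -1.18 in *cutl-11*.

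Collagens split by gene rather than moving as a family. Of 175 cuticle collagen genes in the table only 38 were abundant enough to be tested. Of these, 10 fell and 3 rose, and the median was 0.04. The falls held the furrow collagens *dpy-7*, *dpy-2*, *dpy-3* and *dpy-10*, which are laid in the annular grooves of the cuticle. *dpy-7* (WBGene00001069, chromosome X, 7536467 to 7537792) was at 55.7, 41.9, 40.4 and 48.8 CPM in mutants, against 76.3, 74.5, 64.2 and 73.5 CPM in N2 (log2 fold change -0.63 ± 0.08, adjusted p = 6e-06), and the other 3 fell by 0.50, 0.55 and 0.41. The 3 rises were *col-69*, *col-126* and *col-162*, all past 2-fold but near 1 CPM. *col-162* measured 1.52, 1.38, 2.39 and 2.13 CPM in mutants, against 0.283, 1.13, 1.02 and 0.299 CPM in N2 (1.38 ± 0.35, adjusted p = 0.00816).

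Molecules related to Hedgehog signalling serve the worm cuticle. Of 22 patched-related receptor genes tested, 6 fell and 0 rose (27.3%, median -0.12), led by *ptr-4* at 8.86 ± 2.38 CPM in mutants and 17.3 ± 3.20 CPM in N2 (SD, n = 4; log2 fold change -0.97 ± 0.15, adjusted p = 7.99e-05). The Hedgehog-related ligands had 2 falls among 15 tested, *qua-1* (-1.34 ± 0.23, adjusted p = 0.000284) and *wrt-2* (-2.17, adjusted p = 0.00111), and the rest of that list did not pass. *wrt-2* was scarce, at 0.248 ± 0.204 CPM in mutants (2 to 7 counts) and 1.1 ± 0.275 CPM in N2 (SD, n = 4). Cadherins, found by a scan of gene name prefixes, had 6 falls among the 8 genes named *cdh* that were tested, from -0.36 in *cdh-12* to -1.03 in *cdh-9*.

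Body wall muscle genes fell in the majority. Of 43 tested 24 fell and 1 rose, 55.8% and 2.33%, with a median of -0.29. The single rise was *hnd-1* (WBGene00001981, chromosome X, 11684561 to 11685788), a Hand transcription factor of the early mesoderm, which had 71.1, 72.1, 74.5 and 72.3 CPM in mutants, against 56.5, 62.0, 58.6 and 62.2 CPM in N2. Its strains did not overlap, and the log2 fold change was 0.28 ± 0.05 (adjusted p = 0.000187). For *hlh-1*, the worm MyoD gene, the log2 fold change was 0.12 ± 0.06 (adjusted p = 0.164).

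The falls covered thick filaments, thin filaments, attachments and excitation. *clik-1*, a calponin-like gene whose span overlaps T25F10.1, was at 7.42, 4.45, 3.72 and 6.31 CPM in mutants, against 12.7, 10.4, 8.25 and 11.2 CPM in N2 (log2 fold change -0.96 ± 0.17, adjusted p = 0.00038). *myo-3* (chromosome V, 12226817 to 12234343), a myosin heavy chain of the thick filament, had 34.3, 30.5, 24.5 and 28.3 CPM in mutants, against 53.3, 46.3, 42.2 and 40.1 CPM in N2. In both genes all mutant libraries lay below all N2 libraries. The second heavy chain, *unc-54*, fell by 0.52, paramyosin (*unc-15*) by 0.65, the light chain gene *mlc-3* by 0.90, tropomyosin (*lev-11*) by 0.79, troponin C (*pat-10*) by 0.71 and the titin-like *ttn-1* by 0.75 on the log2 scale. The calcium channel gene *egl-19* fell by 0.73 and vinculin (*deb-1*) by 0.69.

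Basement membranes underlie muscle, gut and epidermis. Of their 16 tested genes 8 fell and 0 rose, with a median of -0.37. Both chains of type IV collagen, the main network of the membrane, were among them: *emb-9* had 214, 176, 165 and 197 CPM in mutants, against 281, 250, 250 and 248 CPM in N2, and *let-2* had 338, 289, 263 and 319 CPM in mutants, against 450, 410, 376 and 407 CPM in N2. No library of one strain fell within the range of the other. Their log2 fold changes were -0.45 ± 0.06 (adjusted p = 1.43e-05) and -0.44 ± 0.06 (adjusted p = 2.16e-05). The SPARC gene *ost-1*, one of the 5 falls with the smallest p, had 119, 108, 97.8 and 105 CPM in mutants, against 166, 151, 146 and 158 CPM in N2 (-0.53 ± 0.05, adjusted p = 2.63e-07). Agrin (*agr-1*) fell by 0.67, perlecan (*unc-52*, also a muscle list member) by 0.61 and nidogen (*nid-1*) by 0.30.

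**Figure D2:**
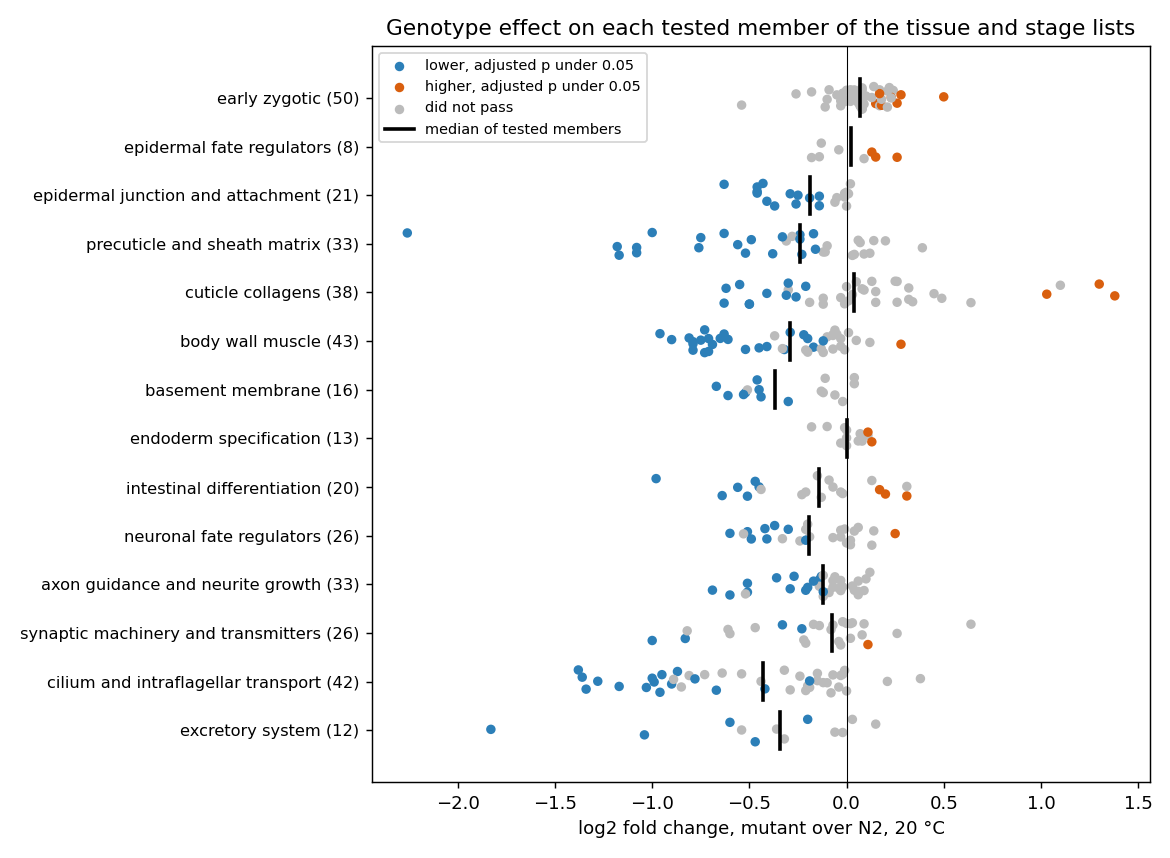
Log2 fold change, mutant over N2 at 20 °C, of each tested member of 14 tissue and stage lists, with the number tested in brackets; colour marks members past an adjusted p under 0.05 and the bar is the list median. The medians of the early zygotic (0.07) and epidermal fate (0.03) lists lie just right of 0, whereas junction, precuticle, muscle, basement membrane and cilium genes extend to the left, as far as -2.26 in *lpr-4*.

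Gut genes differed by list. Of 13 genes of endoderm specification 2 rose, 0 fell and 11 did not pass, with a median of 0.00. Of 20 genes of intestinal differentiation 3 rose, 6 fell and 11 did not pass. The GATA factors of the differentiating gut were both higher: *elt-7* (chromosome V, 4770670 to 4773086) had 29.7, 28.2, 30.1 and 27.6 CPM in mutants, against 25.9, 22.5, 23.1 and 21.7 CPM in N2 (log2 fold change 0.31 ± 0.07, adjusted p = 0.00336), and *elt-2* rose by 0.20 ± 0.07 (adjusted p = 0.0446). The libraries of *elt-2* overlapped, with 29.3 to 34.0 CPM in mutants and 26.2 to 30.3 CPM in N2. The 6 falls included 2 intermediate filaments of the terminal web under the microvilli. *ifb-2* was at 6.73, 4.93, 4.79 and 6.23 CPM in mutants, against 9.84, 8.89, 8.54 and 7.77 CPM in N2 (-0.64 ± 0.13, adjusted p = 0.00152), and *ifp-1* at 0.779 ± 0.160 CPM in mutants and 1.55 ± 0.286 CPM in N2 (SD, n = 4; -0.98 ± 0.27, adjusted p = 0.0166). The other falls were the innexins *inx-16* and *inx-17*, the microvillar *eps-8* and the fatty acid elongase *elo-6*. The esterase *ges-1* had a log2 fold change of -0.03 ± 0.11 (adjusted p = 0.886), and the microvillar actin gene *act-5* one of -0.07 ± 0.09 (adjusted p = 0.633).

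Of 26 neuronal fate regulators 8 fell, 1 rose and 17 did not pass (median -0.20). The rise was *hlh-14*, a proneural factor, at 49.5 ± 4.98 CPM in mutants and 41.8 ± 3.98 CPM in N2 (SD, n = 4; 0.25 ± 0.07, adjusted p = 0.0193), although its libraries overlapped. The falls were *egl-46*, *unc-86*, *unc-3*, *unc-42*, *lin-11*, *lim-4*, *ast-1* and *ngn-1*. *egl-46* (chromosome V, 6679123 to 6681573) had 89.8, 72.8, 64.3 and 62.7 CPM in mutants, against 115, 105, 90.3 and 103 CPM in N2, a log2 fold change of -0.51 ± 0.08 (adjusted p = 0.000158), with mutant replicate 1 just under the lowest N2 library.

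Axon guidance genes had 13 falls and 0 rises among 33 tested (39.4%, median -0.12). *slt-1*, the Slit ligand, led them with 8.63, 9.31, 8.78 and 8.92 CPM in mutants, against 17.3, 13.8, 13.8 and 12.3 CPM in N2 (-0.69 ± 0.10, adjusted p = 8.19e-05), while netrin (*unc-6*) fell by 0.12 and the Eph receptor *vab-1* by 0.21. Genes of mature synapses were closer to the background, with 4 falls and 1 rise among 26 tested. Among 68 tested channels and transmitter receptors, 14 fell and 0 rose, and 8 of the 14 were innexins, subunits of gap junctions. Most neuropeptide genes were too scarce, with 28 of 150 tested, of which 2 fell and 1 rose.

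Cilia, which worms carry only on sensory neurons, gave 16 falls and 0 rises among 42 tested genes (38.1%, median -0.43), and 7 of the falls passed 2-fold. The members are scarce in these embryos, with a median of 2.25 CPM. *daf-10*, a subunit of the intraflagellar transport complex whose span overlaps *flp-1*, measured 1.21, 1.32, 1.13 and 1.10 CPM in mutants, against 3.96, 3.01, 2.34 and 3.19 CPM in N2 (log2 fold change -1.38 ± 0.22, adjusted p = 0.000153). Other falls were the transport motor *che-3* (-0.99) and the transport subunits *osm-5* (-0.67) and *ift-81* (-0.78), the BBSome members *bbs-2* (-1.17) and *bbs-9* (-0.90), the transition zone genes *nphp-1* (-1.03), *mks-5* (-1.0), *mks-3* (-0.96) and *tmem-231* (-0.95), and the kinase *dyf-5* (-1.28). The other 26 members did not pass. The list median was -0.71 without mutant replicate 1, -0.33 without N2 replicate 1 and -0.21 with at least 10 counts required in every library, and 11 to 21 members fell over the fits that left out 1 library.

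The excretory system, a canal cell with its duct and pore, had 5 falls and 0 rises among 12 tested genes (median -0.34). They were *vha-5*, a proton pump subunit (-1.83 ± 0.40, adjusted p = 0.0027), the exchange factor *exc-5* (-1.04 ± 0.18, adjusted p = 0.000371), *exc-7*, *pros-1* and *ceh-6*. *vha-5* was scarce, at 0.416 ± 0.266 CPM in mutants (2 to 12 counts) and 1.51 ± 0.71 CPM in N2 (SD, n = 4). *exc-5* had 3.05, 2.16, 2.79 and 1.66 CPM in mutants, against 5.73, 5.27, 4.38 and 4.58 CPM in N2, with no overlap. Of 22 pharyngeal genes only 12 were abundant enough to be tested, of which 2 fell (16.7%) and 0 rose, with a median of -0.04. At 25 °C 19 were tested, 3 fell and the median was -0.33.

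**Figure D3:**
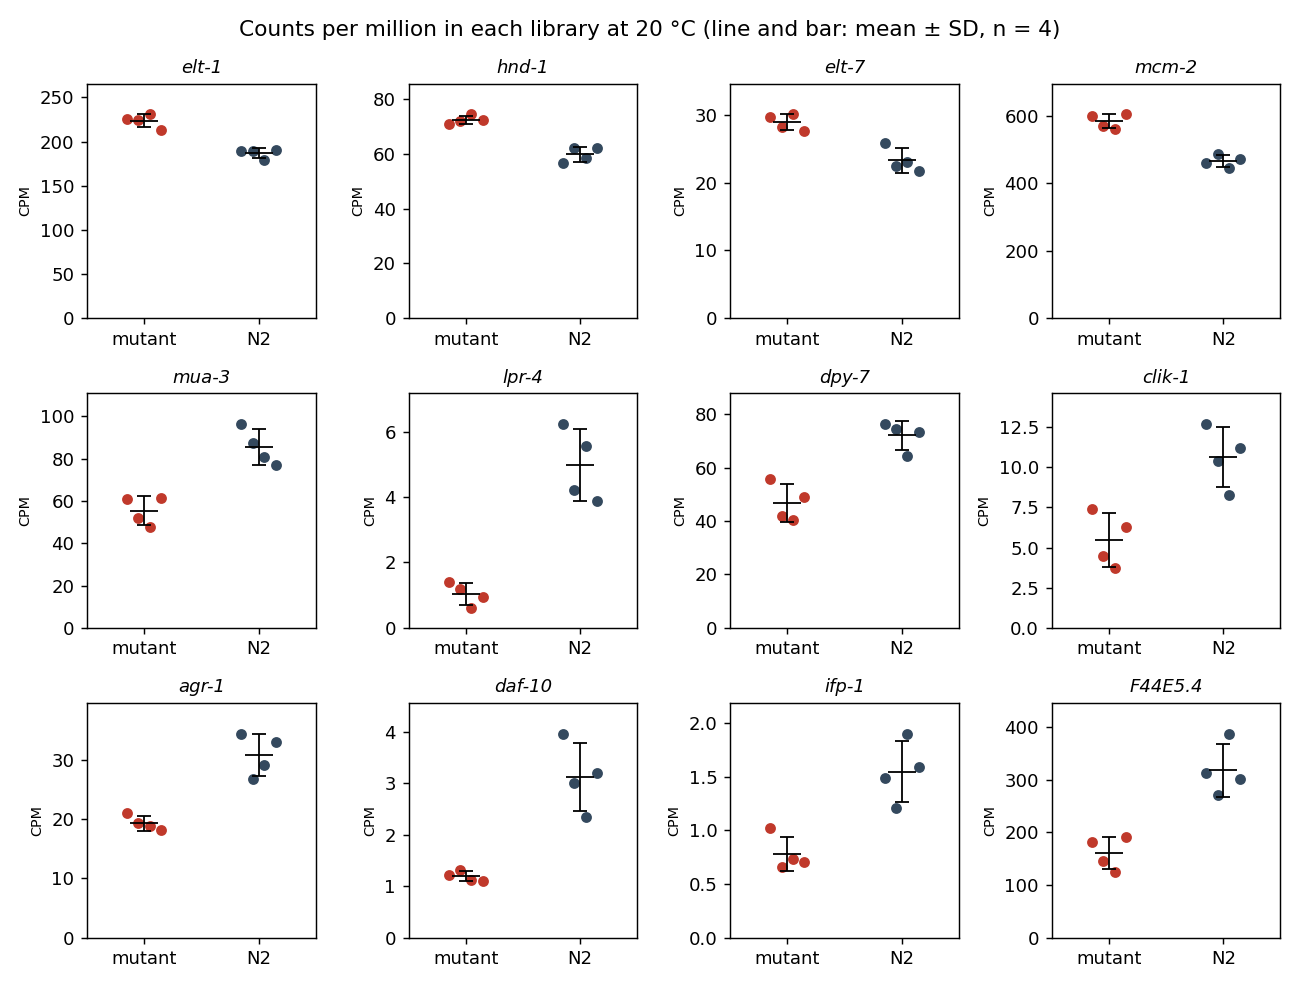
CPM of 12 genes in each of the 4 mutant libraries (left in each panel) and the 4 N2 libraries (right) at 20 °C, with mean ± SD. The regulators *elt-1*, *hnd-1* and *elt-7* and the replication gene *mcm-2* were higher in all mutant libraries, and the 8 other genes, from *mua-3* to F44E5.4, were lower in all of them.

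Genes of the cell cycle and DNA replication drive the divisions of the early embryo. Of 46 tested 22 rose, by small amounts, and 1 fell (47.8% higher against 7.65%), with a median of 0.08. *mcm-2*, a subunit of the replicative helicase whose span overlaps Y17G7B.23, had 598, 569, 561 and 604 CPM in mutants, against 459, 485, 444 and 472 CPM in N2 (0.33 ± 0.04, adjusted p = 2.9e-06). Cyclin D (*cyd-1*) rose by 0.28 ± 0.04 (adjusted p = 8.06e-05), the licensing factor *cdt-1* by 0.22 and PCNA (*pcn-1*) by 0.21. The fall was *cyb-2.2*, a B-type cyclin (-0.13 ± 0.04, adjusted p = 0.021).

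Early zygotic genes had 7 rises and 0 falls among 50 tested (14.0%), and 43 did not pass, with 38 of the 50 above 0 and a median log2 fold change of 0.07. The 7 were *elt-1* and *hnd-1*, described above, with *die-1*, *nob-1*, *ref-1*, *sdz-5* and *sdz-8*, of which *sdz-8* had the largest value (4.80 ± 0.584 CPM in mutants and 3.40 ± 0.355 CPM in N2, SD, n = 4; 0.50 ± 0.16, adjusted p = 0.0297). The count was 4 without mutant replicate 2 or without mutant replicate 3. For *pes-10*, the classic early transcript, the log2 fold change was 0.09 ± 0.04 (adjusted p = 0.128). No T-box gene passed among 16 tested.

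Maternal regulators were slightly lower, while germ cell genes showed no common direction. Of 30 maternal RNA-binding and fate regulators 5 fell (16.7%) and 1 rose (3.33%). Of the 30, 22 had a log2 fold change below 0, and the median was -0.05. Averaged over this list, mutant libraries lay between -0.081 and -0.025 and N2 libraries between -0.018 and 0.02, in log2 units from the N2 mean. At 25 °C, 7 of these genes rose and 0 fell, with a median of 0.13. Of 27 P granule and primordial germ cell genes 3 rose and 3 fell (median -0.02). *znfx-1*, a helicase of germ granules, was the largest rise, at 93.2 ± 6.24 CPM in mutants and 72.1 ± 5.73 CPM in N2 (SD, n = 4; 0.36 ± 0.05, adjusted p = 7.87e-05). *puf-11* was the largest fall among maternal regulators (-0.25 ± 0.06, adjusted p = 0.00502). *pos-1*, *mex-5* and *oma-1*, abundant in the oocyte, had log2 fold changes of -0.07, -0.05 and 0.02 with adjusted p of 0.227, 0.476 and 0.799.

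Genes linked to dosage compensation and the DREAM complex had 9 rises and 0 falls among 30 tested (30.0%, median 0.08), with 21 that did not pass. The number that rose was 5 without mutant replicate 2 or without N2 replicate 1. The largest rise was *xol-1* (18.5, 20.4, 18.8 and 19.5 CPM in mutants, against 15.2, 15.1, 15.6 and 12.4 CPM in N2; 0.40 ± 0.08, adjusted p = 0.00187). Linker and core histones had 8 rises and 1 fall among 58 tested, with 4 of the 8 rises in linker histone genes named *hil*, of which *hil-3* had the largest (0.40 ± 0.04, adjusted p = 9.75e-07). In the spliceosome list 12 of 44 rose and 4 fell, including the Sm protein genes *snr-1* to *snr-7*, which all rose, by 0.12 to 0.29. By far the largest member was *prp-31*, with 490, 500, 507 and 525 CPM in mutants, against 214, 233, 221 and 228 CPM in N2, followed by the RNA-binding gene *hrpa-1* (0.49 ± 0.04, adjusted p = 1.39e-08).

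Cytosolic ribosomal proteins form the translating ribosome. Of 78 tested genes 69 rose and 0 fell (88.5% against 7.65%), and 77 had a log2 fold change above 0, with a median of 0.17. The largest value, 0.53, was shared by *rpl-11.1* and *rpl-37*. *rpl-37*, whose span overlaps *pitp-1*, was at 16.7, 20.0, 17.2 and 20.2 CPM in mutants, against 13.2, 12.9, 10.7 and 14.7 CPM in N2 (SE 0.10, adjusted p = 0.000592). Mitochondrial ribosomal proteins did not share the rise, with 0 rises and 1 fall among 65 tested. These mRNAs are short, with a median exonic length of 521 bases, and length went with direction across the transcriptome: genes of up to 800 bases rose in 12.0% and fell in 4.14% of cases, while genes over 2200 bases rose in 6.92% and fell in 16.4%. Of the 107 other genes of up to 800 bases and over 200 CPM, 42 rose and 4 fell. Members of the muscle, basement membrane, cilium, precuticle, junction and axon guidance lists over 2200 bases fell in 52.1% of cases (62 of 119). Other genes of that length fell in 14.8% of cases. At 801 to 1400 bases these shares were 41.9% (13 of 31) and 6.08%. The part of length in the ribosomal result and in these falls was not tested.

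**Figure D4:**
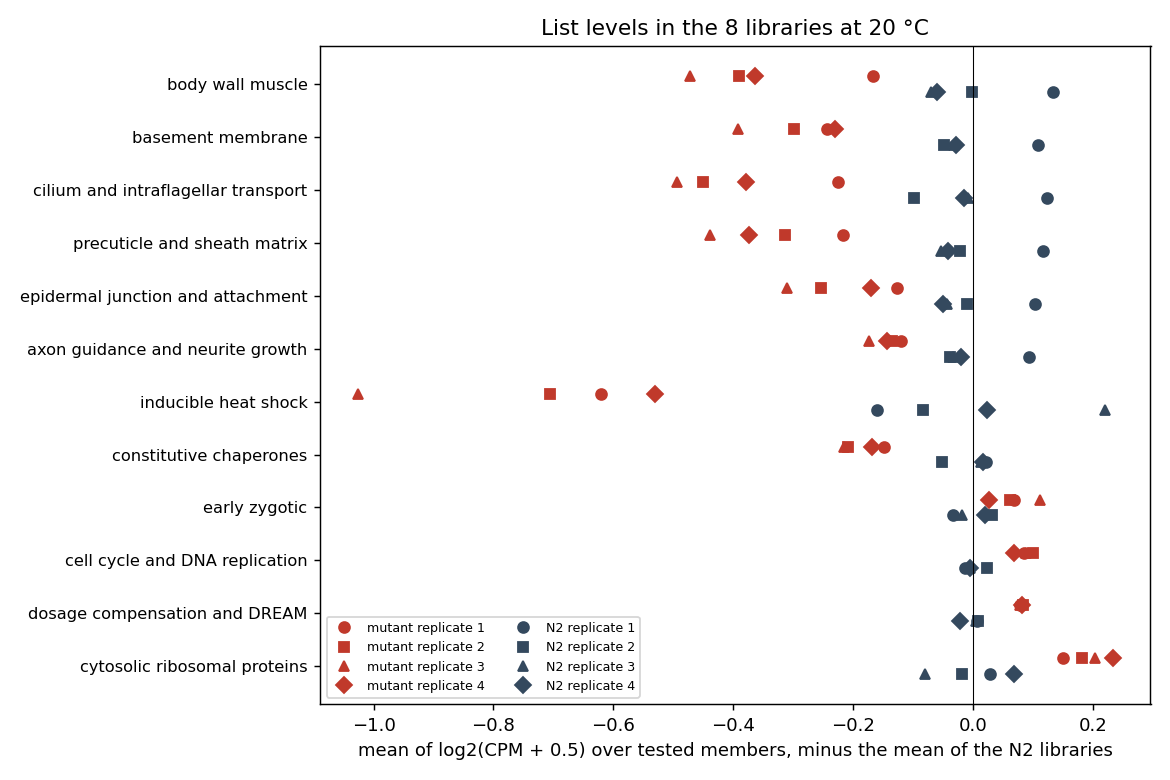
Mean of log2(CPM + 0.5) over the tested members of 12 lists in each mutant library (upper row of each list) and each N2 library (lower row), relative to the mean of the 4 N2 libraries. Except for the early zygotic list, the 4 mutant libraries lie on one side of the 4 N2 libraries; replicate 1 of each strain is the highest of its strain in the muscle, cilium, precuticle, junction and axon lists.

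Averaged over a list, each library could be compared with the others. The muscle list stood at -0.167, -0.391, -0.473 and -0.364 in mutant replicates 1 to 4, against 0.133, -0.001, -0.071 and -0.061 in N2 replicates 1 to 4, in log2 units from the N2 mean. Mutant replicate 1 was thus the closest to N2 and N2 replicate 1 the farthest from the mutants, and the same held for the cilium, precuticle, junction and axon lists. The cell cycle list was flatter, between 0.068 and 0.1 in mutants and between -0.014 and 0.024 in N2. The early zygotic list ranged from 0.026 to 0.111 in mutants and from -0.033 to 0.032 in N2, and so overlapped.

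Heat shock genes encode chaperones that fold and refold proteins, and they were lower in mutants. All 7 tested genes of the inducible heat shock list fell, with a median of -0.75 and none past 2-fold. F44E5.4 (chromosome II, 11757107 to 11759311), an Hsp70 gene, had 181, 146, 125 and 191 CPM in mutants, against 312, 270, 387 and 301 CPM in N2 (-0.98 ± 0.10, adjusted p = 4.41e-07). Its counts and those of the *hsp-16* genes are divided among near-identical copies, so single values are uncertain. *hsp-70*, whose span overlaps *uggt-2*, was at 1.52, 1.98, 0.865 and 1.58 CPM in mutants, against 2.55, 2.56, 3.14 and 1.59 CPM in N2, the lowest N2 library lying within the mutant range. Of 29 constitutive chaperones 16 fell and 1, *cdc-37*, rose (median -0.11). These included 4 of the 8 subunits of the cytosolic chaperonin, *cct-3*, *cct-6*, *cct-7* and *cct-8*, by 0.12 to 0.17, and the abundant *hsp-1* by 0.16 ± 0.05 (adjusted p = 0.0206). The largest fall was that of the small heat shock gene *hsp-12.2*, at 1.79 ± 0.307 CPM in mutants and 4.16 ± 0.883 CPM in N2 (SD, n = 4; -1.22 ± 0.20, adjusted p = 0.000206). Its span overlaps C14B9.8. Without mutant replicate 3, 9 constitutive chaperones fell.

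Cullins, SKP1-related adaptors and RING proteins are the partners of F-box proteins. Of 30 tested 10 rose, 1 fell and 19 did not pass (33.3% higher, median 0.06). SKP1-related *skr* genes made up most of the rises, with 8 of 17 tested higher, by 0.12 in *skr-13* to 0.22 in *skr-15*. *skr-15* had 114, 117, 123 and 115 CPM in mutants, against 96.2, 99.2, 101 and 105 CPM in N2 (0.22 ± 0.04, adjusted p = 0.000496). The fall was the F-box gene *dre-1* (-0.22 ± 0.04, adjusted p = 0.000288). The count was 5 without mutant replicate 3, without N2 replicate 1 or without N2 replicate 3. F-box genes did not exceed the background of 7.65% higher and 9.66% lower. Of 44 *fbxa* genes 3 rose (6.82%) and 0 fell. Of 100 *fbxb* genes 5 rose (5.0%) and 7 fell (7.0%), and of 38 *fbxc* genes 1 rose (2.63%) and 3 fell (7.89%). Proteasome subunits had 2 rises and 0 falls among 33 tested.

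Stress, immune and metabolic families were mostly below or near the background. None of 9 tested genes of the intracellular pathogen response passed, 0 of 18 C-type lectins rose and 1 fell, and 0 of 26 cytochrome P450 genes rose and 1 fell. Nuclear hormone receptors, with 151 tested, had 3 rises and 5 falls. Among 20 immune effectors and regulators 5 rose and 1 fell. The rises held the p38 kinase genes *pmk-1*, *pmk-2* and *pmk-3*, which lie together on chromosome IV. *pmk-2* (8143500 to 8148648) had 51.2, 56.4, 60.4 and 53.8 CPM in mutants, against 30.7, 33.5, 36.9 and 34.1 CPM in N2 (0.72 ± 0.06, adjusted p = 7.54e-08), *pmk-3* rose by 0.47 ± 0.05 (adjusted p = 2.46e-06) and *pmk-1* by 0.18.

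The genes with the smallest p belonged to none of the tissue groups, apart from *ost-1*. The 5 rises were *prp-31*, *ccdc-12* (log2 fold change 0.93 ± 0.04), *gid-8* (0.69 ± 0.04), *taf-11.1* (0.56 ± 0.04) and T03F1.6 (0.90 ± 0.07), with adjusted p from 5.87e-16 to 6.19e-09. *ccdc-12* (chromosome IV, 2494516 to 2495174) had 224, 226, 234 and 222 CPM in mutants, against 117, 124, 121 and 113 CPM in N2. *gid-8*, related to a subunit of a yeast ubiquitin ligase, had 123, 117, 117 and 123 CPM in mutants, against 73.6, 74.8, 73.3 and 76.3 CPM in N2. The spread within a strain was a small part of the difference in each. The falls were *metl-13*, *eif-2D*, F25G6.1, F30H5.3 and *ost-1*. *eif-2D*, a translation initiation factor, had 11.9, 12.9, 12.2 and 13.9 CPM in mutants, against 37.5, 42.7, 40.0 and 37.2 CPM in N2.

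Low-abundance rises were rich in pseudogenes. Of 28 genes that rose by more than 2-fold 7 were annotated pseudogenes, against 2 of the 89 that fell by more than 2-fold. Over all 333 pseudogenes tested, 36 rose (10.8%) and 10 fell (3.00%), whereas 763 of 10111 protein-coding genes rose (7.55%) and 999 fell (9.88%). The 7 averaged between 0.749 and 3.41 CPM. Of the 36 that rose 8 had whole counts in all 8 libraries, against 111 of all 333 pseudogenes tested. The others held fractions that the read assignment had divided.

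Changed genes were spread over the genome. Between 5.68% (X) and 8.55% (IV) of the tested genes of a nuclear chromosome rose, and between 8.36% (II) and 12.7% (X) fell, so the X chromosome had the lowest share of rises and the highest share of falls. Within 1 Mb of *fbxa-215*, 15 of 149 tested genes rose and 20 fell (23.5% changed against 17.3%). Of the 3 tested genes on either side of *fbxa-215*, *rsd-2*, C08F11.13, *ugt-22*, *nyn-1* and *tlp-1* did not pass, and *sorb-1* had a log2 fold change of -0.76 ± 0.26 (adjusted p = 0.0491), a call lost with RLE scaling and in 6 of the 8 fits that left out a library.

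At 25 °C, in embryos collected 47 h after plating, the same contrast in 8 other libraries gave fewer changes, 493 of 11944 genes (4.13%), 2.09% higher and 2.03% lower. Temperature, collection time and batch differ together here and cannot be told apart. In several lists that fell at 20 °C the median kept its sign with a smaller value. Muscle stood at -0.07 with 6 falls among 45 tested, and basement membrane at -0.07 with 2 among 18. Cilium stood at -0.27 with 3 falls among 57, and precuticle at -0.14 with 5 among 43. The same held for the excretory (-0.15), neuronal fate (-0.04), axon guidance (-0.02) and constitutive chaperone (-0.03) lists. The inducible heat shock median was -0.35 at 25 °C, where 0 of 8 tested genes passed. No junction gene passed, and the patched-related median was -0.19, farther from 0 than at 20 °C (-0.12). Among the 1009 genes that fell at 20 °C and were tested at 25 °C, 808 had a negative log2 fold change there, with a median of -0.12 against -0.37 at 20 °C. For the cell cycle list the median was 0.08 at 20 °C and 0.10 at 25 °C, where 10 of its genes rose and 0 fell.

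An interaction term over all 16 libraries asked whether the effect of genotype differed between the collections, and 141 of 12116 genes (1.16%) passed it. Ribosomal protein genes made up 40 of these: their median was 0.17 at 20 °C and -0.08 at 25 °C, and all 40 had a lower ratio of mutant to N2 at 25 °C. By comparison 4 of the muscle list, 3 of the cilium list, 2 of the precuticle list and 1 of the basement membrane list passed, so that for most members of these lists a difference between temperatures was not detected.

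**Figure D5:**
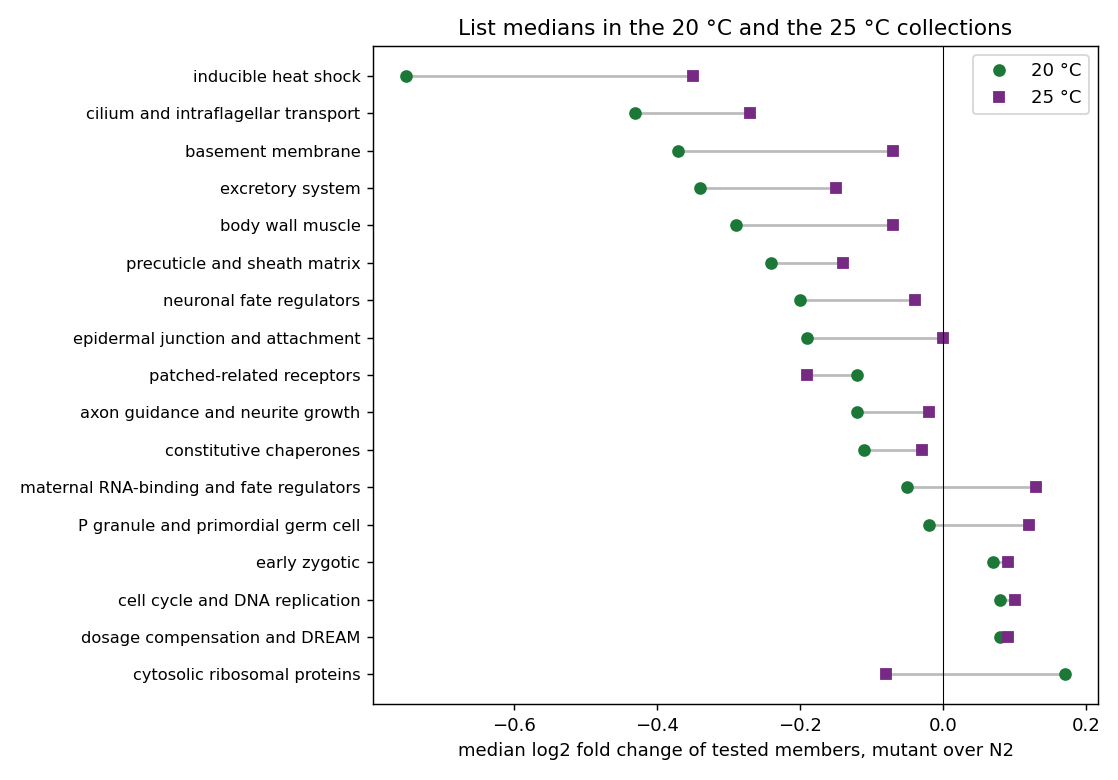
Median log2 fold change, mutant over N2, of the tested members of 17 lists at 20 °C (circles) and 25 °C (squares); temperature, hours after plating and batch differ together between the collections. Muscle and basement membrane medians are -0.29 and -0.37 at 20 °C and -0.07 for both at 25 °C, cell cycle medians are 0.08 and 0.10, and the ribosomal protein median is 0.17 at 20 °C and -0.08 at 25 °C.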

How the data were processed

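Messenger RNA of whole mixed-stage embryos was sequenced as non-directional libraries of read pairs. Per the labels, processing used Trimmomatic 0.39, Salmon 1.5.1 and the WBcel235 build. The authors deposited Salmon's estimated counts, summed per gene and separate for each temperature. The annotation release was not given in the sources used here. Because Salmon divides shared reads, 24.8% of the estimated counts at 20 °C were not whole (tolerance 0.01), and all were rounded. Tables of the authors' own DESeq2 comparison (log2 values per library, fold changes, adjusted p-values) were not used. Of 21882 genes, 21714 were found in Ensembl release 115, which gave the 1-based coordinates.

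The 8 libraries at 20 °C were tested with edgeR 4.0.16 in R 4.3.3 (filterByExpr, TMM, quasi-likelihood, genotype as the sole term), with Benjamini-Hochberg adjustment over all genes. SE is the absolute log2 fold change divided by the square root of F. CPM values use TMM-scaled library sizes. The floor for a listed 0 was 3 counts, which is 0.180 to 0.299 CPM in a library at 20 °C and covers counting error only. On simulated counts of 10471 genes for this comparison the test recovered 93 of 98 genes changed 2-fold and 79 of 99 genes changed by 0.5 on the log2 scale, with 11 false calls. Smaller changes were not simulated, although the median absolute log2 fold change of the genes called was 0.26.

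The contrast and the 61 gene lists were chosen with earlier results of these data known. Lists are described by counts and medians, not by a set test. Genes were named by rule: *fbxa-215*, the 5 rises and 5 falls of smallest p, changes above 2-fold with a mean of at least 5 CPM, the largest separated rise and fall of each list at 1 CPM or more, and 3 tested neighbours of *fbxa-215* per side. Other genes named, and the name-prefix and length counts, were chosen after their values were seen. Alternatives were RLE and upper-quartile scaling, DESeq2 1.42.0, limma-voom (limma 3.58.1), no filter, at least 10 counts in every library, the replicate block, all 16 libraries, each library left out, an adjusted p under 0.01 and a fold of 1.5. No sequence is shown, as no genome sequence was used here.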

Additional observations from a re-analysis of the deposited data

Results flagged for a closer look

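In 6 of 198 sets of 4 libraries of a named gene, 1 library lay far from the other 3 by Dixon's criterion, where chance gives about 1 in 20. These were *metl-13* in N2 replicate 2 (39.2 CPM, the others between 44.3 and 45.0 CPM), *elt-1* in N2 replicate 3 (179 CPM, the others between 189 and 191 CPM), *znfx-1* in N2 replicate 1 (80.7 CPM, the others between 68.6 and 70.2 CPM), *ugt-57* in N2 replicate 1 (65.5 CPM, the others between 59.1 and 60.0 CPM), *asp-4* in mutant replicate 1 (312 CPM, the others between 295 and 297 CPM) and *xol-1* in N2 replicate 4 (12.4 CPM, the others between 15.1 and 15.6 CPM). None of these libraries lay within the range of the other strain.

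For 17 of the 100 named genes the genotype effect differed between the collections at an adjusted p under 0.05 for the interaction (edgeR, 16 libraries). Its value, the log2 fold change at 25 °C minus that at 20 °C, was positive for 14 genes that fell at 20 °C: *lpr-4* 1.94, F30H5.3 1.62, *ncx-2* 1.40, *daf-10* 1.04, C48E7.6 0.99, B0393.5 0.90, *clik-1* 0.89, C27C7.1 0.87, *hum-6* 0.85, *lpr-5* 0.85, *cdh-9* 0.82, *metl-13* 0.51, *agr-1* 0.44 and *cyb-2.2* 0.23. It was negative for the rises *gst-24* (-1.42), T03F1.6 (-0.66) and *srlf-1* (-0.27). Most of the 14 falls were more abundant in N2 at 25 °C, such as *lpr-4* (91.9 CPM, against 4.97 CPM at 20 °C) and F30H5.3 (203 against 13.4 CPM). *metl-13* (34.7 against 43.2 CPM) and *cyb-2.2* (85.4 against 140 CPM) were less abundant there. Temperature, hours after plating and batch cannot be told apart in these values.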

How the results depend on the processing

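The fall of *fbxa-215* kept its call in every fit where it was recomputed, with log2 fold changes from -14.59 to -12.77 when 1 library was left out. With 1 library left out, 1216 to 1690 genes changed (507 to 717 higher, 709 to 973 lower) and 102 to 190 changed by more than 2-fold (24 to 39 higher, 75 to 158 lower), the 190 arising without mutant replicate 1 and the 507 without mutant replicate 2. At an adjusted p under 0.01, 907 genes changed (365 higher, 542 lower), and 17 rose by more than 2-fold. The count past 2-fold was 228 (65 higher, 163 lower) with no low-count filter, 45 (4 higher, 41 lower) with at least 10 counts in every library, 214 (43 higher, 171 lower) with all 16 libraries in the fit, and 399 (79 higher, 320 lower) past 1.5-fold; low counts limit this threshold, since 76 of the 117 genes average under 2 CPM. DESeq2 called 1528 genes, 1512 of them shared with the 1812.

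The medians of the 14 main lists kept their sign in every fit. At an adjusted p under 0.01 the numbers that fell were 10 for cilia and 10 for constitutive chaperones, and those that rose were 3 for early zygotic genes, 14 for the cell cycle, 4 for cullin partners, 45 for ribosomal proteins, 7 for the spliceosome and 5 for dosage compensation and DREAM. The cilium median was -0.77 with no filter, -0.77 with all 16 libraries and -0.21 with at least 10 counts in every library. Leaving out 1 library gave medians from -0.71 to -0.33 for cilia, -0.46 to -0.30 for basement membrane and 0.08 to 0.10 for the cell cycle, 9 to 18 constitutive chaperones lower, and 4 to 6 early zygotic, 5 to 10 cullin partner and 5 to 8 dosage compensation and DREAM genes higher. The cause of these shifts was not tested. Of the other named-gene results, 1555 kept their call and 119 lost it.

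Replicate numbers are shared between the strains, but same-numbered libraries did not deviate together throughout (correlations of deviations of 0.104, 0.022, 0.087 and 0.058 for numbers 1 to 4, and N2 replicate 2 correlated best with mutant replicate 3). With a replicate block 1995 genes changed (881 higher, 1114 lower), 1795 of them shared, and 121 past 2-fold; the counts behind the 14 main lists stayed within 1.5 times, and among named genes the call on *unc-18* alone was lost.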
